A study of Mus musculus with 4 samples.

Results

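The genes that drive and license the cell cycle were compared between brains lacking Atm and brains carrying it. They were taken by gene symbol from the array's annotation: cyclins A to L with a number, numbered cyclin-dependent kinases (CDKs) and proteins named after them, CDK inhibitors, minichromosome maintenance (MCM) proteins, the origin recognition complex (ORC), E2F factors, and CDC6, CDC7, CDC20, CDC25 and CDC45. The rule used symbols and no measured value, and it found 178 of the 45281 probes, for 81 genes. It also took in a few genes that share a name but not this role, such as Cdc73, a subunit of the PAF1 transcription complex. There were 2 Atm-/- and 2 Atm+/+ samples of brain total RNA, each on 1 Illumina bead array. The mice of both genotypes came from a mixed background, 129J x C57BL/6. The labels used here give neither the Atm allele, the age and sex of the mice, nor the brain region, and whether replicates are different mice is not stated. A p-value here covers only the variation among these 4 samples, part or all of which could be technical. The series title places the arrays in work on EZH2 and neurodegeneration in ataxia-telangiectasia.

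Cyclins bind and activate CDKs, and each pair acts at its own stage. D cyclins with CDK4 or CDK6, then cyclin E with CDK2, phosphorylate the retinoblastoma protein, which frees E2F factors to switch on genes for DNA replication. Origins are licensed in G1 when ORC and CDC6 load the MCM helicase, and CDC7 and CDC45 help to fire it. CIP/KIP and INK4 inhibitors hold CDKs back, while CDC25 phosphatases release them. Most adult neurons have left the cycle for good, and some of these proteins have other work in them: CDK5, with its activator p35, acts in neuronal migration and at the synapse. Cell cycle proteins have been described in neurons at risk in Atm deficiency, which is the question behind looking at them here.

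Atm itself was checked first. Probe ILMN_1258206 read 5.59 and 5.27 in Atm-/- and 7.75 and 7.84 in Atm+/+ (log2 signal, as all levels below). A background level of 5.64 was drawn from the values, and a probe had to exceed it on 2 or more arrays to be tested. Where neither array of a genotype exceeds it, the probe is described as at background in that genotype, and its fold is then a bound. A tested probe at background in 1 genotype exceeded the level on both arrays of the other, so this filter fixed its direction. The Atm probe was at background in Atm-/-, at least 4.46-fold lower (limma adjusted p = 0.00224). ILMN_2783896 was also at background in Atm-/-, at least 1.77-fold lower (adjusted p = 0.0205), while ILMN_2492491 read 9.66 and 10.61 in Atm-/- and 9.72 and 9.32 in Atm+/+ and did not pass (0.61 ± 0.37, adjusted p = 0.308). Where these probes lie relative to the deleted part of Atm is not given in the labels. Ezh2, the methyltransferase of the title, read 6.38 and 6.17 in Atm-/- and 7.69 and 7.68 in Atm+/+ at its tested probe, and fell by 1.41 ± 0.25 (SE; adjusted p = 0.0137); with Atm-/- replicate 1 or replicate 2 left out it no longer passed (adjusted p 0.137 and 0.214).

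The arrays of the genotypes differed in how well they repeated and in markers of brain regions alike. The replicates of Atm-/- differed by over 2-fold at 0.737% of tested probes and those of Atm+/+ at 11.3%. Of 20 tested cortical and hippocampal markers 16 were higher in Atm-/-, with a summed linear signal of 95340 to 99970 in Atm-/- and 11990 to 18640 in Atm+/+. Of 17 striatal markers 15 were higher (98110 to 102100 in Atm-/-, 10510 to 14890 in Atm+/+). Of 14 markers of cerebellar granule cells and interneurons 12 were lower (8777 to 9745 in Atm-/-, 59600 to 73170 in Atm+/+), as were 8 of 10 Purkinje cell markers (9560 to 10390 in Atm-/-, 77810 to 79720 in Atm+/+). Of 19 markers of thalamus, hypothalamus and brainstem 16 were lower (4373 to 4659 in Atm-/-, 22200 to 24850 in Atm+/+). Each gene stands here by its brightest tested probe, at which 7.50% of all genes were higher and 6.89% lower. In Atm-/- the Purkinje genes Pcp2, Lhx1, Lhx5, Ppp1r17 and Ebf2 and the granule cell genes Gabra6, Zic2, Barhl1 and Fat2 were at background. In Atm+/+ Tbr1, Emx1, Icam5 and Crym of the cortex and Drd1, Pde10a, Dlx1 and Dlx2 of the striatum were at background. The part of these differences in the results on cell cycle genes was not tested. Hoxa5 and Hoxb5, of the brainstem list, were also at background in Atm-/-. The labels give no brain region. In tissue RNA of this kind, a difference in the region sampled, fewer cells of a type and less RNA per cell cannot be told apart.

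Of the 178 probes 100 were tested, standing for 62 genes, and 13 passed the threshold of an adjusted p under 0.05. That is 13.0% of them, beside 13.0% of all 22383 tested probes. There were 9 rises, where 6.98% of all tested probes rose, and 4 falls, where 6.06% of all fell. The share of calls among cell cycle probes was thus that of the array as a whole. The called probes belonged to 9 genes. Ccnd2, Cdk10, Cdk5r1, Cdk5rap1 and E2f1 were higher in Atm-/-, and Ccne2, Cdc25a, Mcm2 and Cdk5rap2 were lower. With each gene represented by its brightest tested probe, 7 of 62 genes passed (11.3%, against 14.4% of all genes). Of these 3 were higher, where 7.50% of all genes were, and 4 were lower, where 6.89% of all were. The median change was 0.05 on the log2 scale over the tested cell cycle probes and 0.0036 over all tested probes, and the median size of change was 0.43 in both. Values of the genotypes did not overlap at 55 of the 100 probes, against 59.8% of all tested probes. At an unadjusted p under 0.05 there were 31 of these 100 probes and 6711 of all (30.0%).

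**Figure D1:**
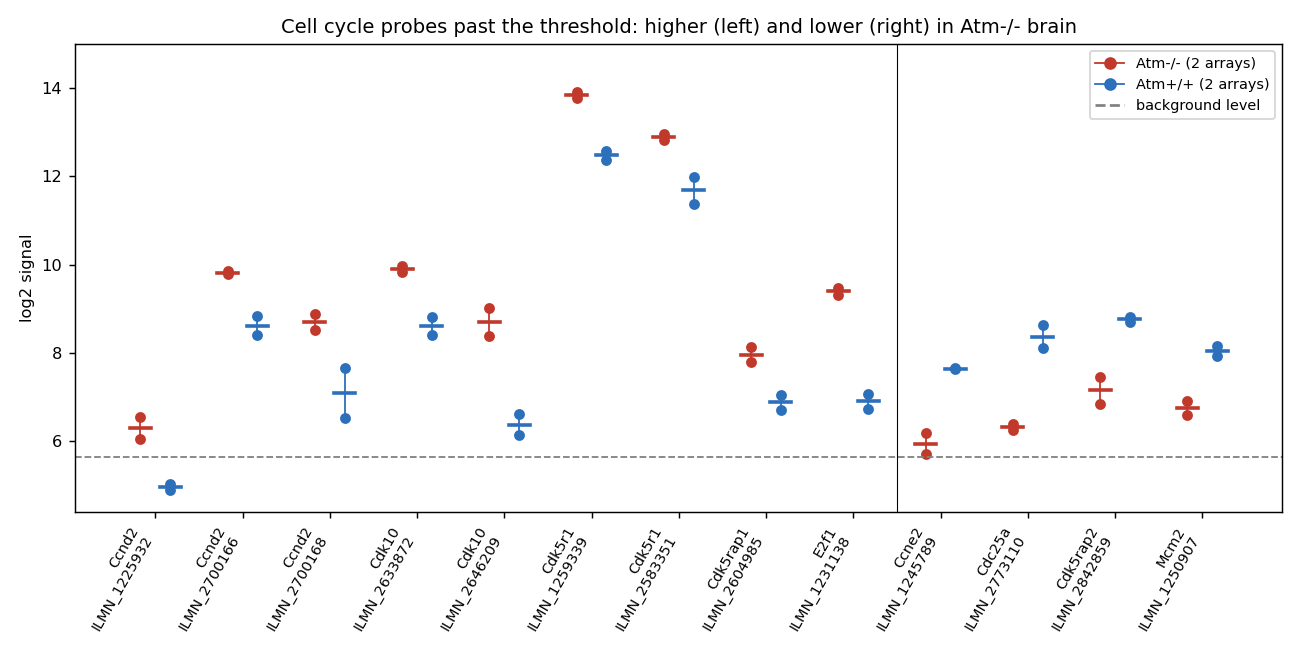
Log2 signal on each array of the 13 cell cycle probes past the threshold, Atm-/- left and Atm+/+ right within each probe, with a bar at the mean of the 2 arrays and the background level of 5.64 dashed. At each probe both Atm-/- arrays lay on the same side of both Atm+/+ arrays. Choosing probes by p favours this, and 59.8% of all tested probes did not overlap. The Ccnd2 probe ILMN_1225932 was at background in Atm+/+.

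**Figure D2:**
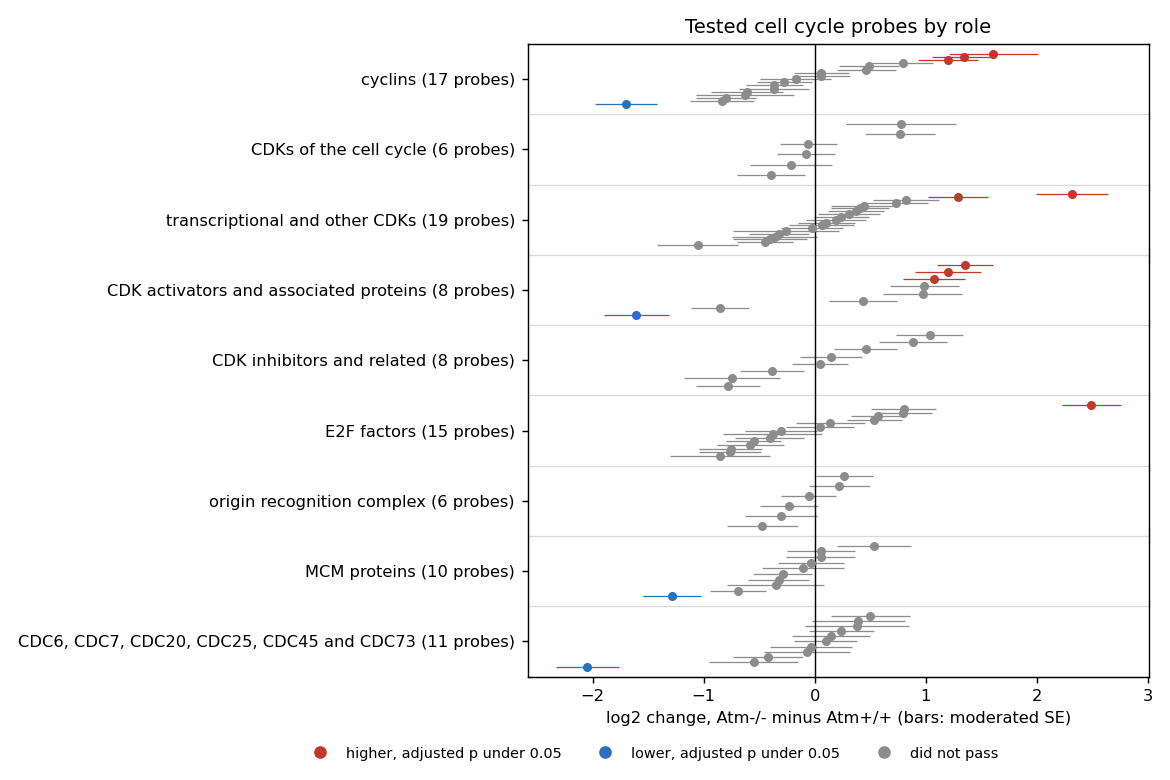
Log2 change, Atm-/- minus Atm+/+, of the 100 tested probes grouped by role, with the moderated SE. The changes in each role lay on both sides of 0, the highest change was that of E2f1 at 2.49, and the lowest that of Cdc25a at -2.05.

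Among the E2F factors, which turn replication genes on or off, E2f1 was the 1 gene with a call. This activator, released when the retinoblastoma protein is phosphorylated, read 9.32 and 9.47 in Atm-/- and 6.73 and 7.08 in Atm+/+. Both Atm-/- arrays were well above both Atm+/+ arrays. E2f1 rose by 2.49 ± 0.27 (SE, n = 2 per genotype), or 5.62-fold, with an adjusted p of 0.00201. It was the single called probe of the 178 to pass in all 4 fits that leave out an array, at an adjusted p of 0.0194 or less. The other activators were dim and did not pass. E2f2 read 5.93 to 6.12 in Atm-/- at both tested probes and was at background in Atm+/+ (adjusted p 0.177 and 0.200). E2f3 read 5.69 to 6.23 in Atm-/- and was likewise at background in Atm+/+ at both tested probes (adjusted p 0.0865 and 0.114). At each of these E2f2 and E2f3 probes only the Atm-/- arrays were above background, so the filter fixed the direction.

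The repressive E2F members gave no call. E2f6, which represses through Polycomb proteins, had 6 tested probes, and all 6 were lower in Atm-/- by 0.30 to 0.76 on the log2 scale, with adjusted p between 0.120 and 0.618. At ILMN_2791963 it read 11.05 and 11.02 in Atm-/- and 11.60 and 11.57 in Atm+/+. The genotypes did not overlap there, as at 59.8% of all tested probes, but did overlap at the E2f6 probes ILMN_1246301 and ILMN_1253173. E2f4, a repressor with the pocket proteins p107 and p130, differed by -0.85 ± 0.45, with Atm+/+ values of 6.79 and 8.16 that lay far apart. E2f5 differed by -0.58 ± 0.30 at ILMN_2953596 and by 0.05 ± 0.30 at its dim other probe, and E2f7 by 0.14 ± 0.31. E2f8 was at background on all 4 arrays.

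Cyclins, the activating partners of CDKs, included both a rise and a fall. Ccnd2, the D cyclin known for its part in progenitors of the hippocampus and cerebellum, rose at all 3 of its tested probes. For ILMN_1225932, above background in Atm-/- only, the filter fixed that direction. At ILMN_2700166 it read 9.85 and 9.80 in Atm-/- and 8.41 and 8.84 in Atm+/+, a rise of 1.20 ± 0.27 (2.30-fold, adjusted p = 0.0305). At ILMN_2700168 it read 8.52 and 8.89 in Atm-/- and 6.53 and 7.67 in Atm+/+, a rise of 1.61 ± 0.40 (adjusted p = 0.0413), although the Atm+/+ arrays differed there by 1.14 log2 units. ILMN_1225932 read 6.06 and 6.56 in Atm-/- and was at background in Atm+/+, at least 1.59-fold higher (adjusted p = 0.0242). The last Ccnd2 probe was at background on all 4 arrays. Without either Atm-/- array no Ccnd2 probe passed (adjusted p 0.117 to 0.325).

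The other D cyclins did not pass. Ccnd1 read 11.16 and 11.12 in Atm-/- and 10.85 and 10.45 in Atm+/+ at ILMN_1221503 (difference 0.49 ± 0.27), 10.74 and 10.65 in Atm-/- and 10.12 and 9.68 in Atm+/+ at ILMN_2601471 (0.79 ± 0.27, adjusted p = 0.102), and differed by 0.06 ± 0.25 at its last probe. Ccnd3 differed by -0.27 ± 0.25 at its brighter probe and by -0.17 ± 0.32 at the other.

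Of the E cyclins, which start S phase with CDK2, Ccne2 fell. It read 5.71 and 6.19 in Atm-/- and 7.65 and 7.64 in Atm+/+, close to background in Atm-/- and nearly equal on the Atm+/+ arrays. The fall of 1.70 ± 0.28 (3.25-fold lower, adjusted p = 0.00990) was lost without Atm-/- replicate 1 (adjusted p = 0.156) or replicate 2 (0.0531). Its paralogue Ccne1 read 6.63 and 6.65 in Atm-/- and 6.37 and 5.98 in Atm+/+, a difference of 0.47 ± 0.27 in the other direction that did not pass (adjusted p = 0.288). The cyclins of mitosis that had a probe lay at the limit of detection. No probe was annotated to Ccnb1 alone, so that mitotic cyclin was not measured here. Ccna2 and Ccnb2, partners of CDK1, were at background on all 4 arrays, as was the germline cyclin Ccna1.

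Of the less typical cyclins none passed. Ccng1, a p53 target, differed by -0.83 ± 0.29 at ILMN_2702233, by -0.61 ± 0.33 at ILMN_2710229 and by 0.06 ± 0.26 at its brightest probe. Ccng2, a cyclin of cells leaving the cycle, read 8.91 and 9.07 in Atm-/- and 9.99 and 9.58 in Atm+/+ (-0.80 ± 0.27, adjusted p = 0.0979). Ccnl1, a partner of splicing-linked CDKs, was lower in Atm-/- by 0.36 to 0.63 at its 3 probes, and 2 of them overlapped between genotypes.

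CDKs that drive the cell cycle showed no call at their 6 tested probes, with 1 of the 6 at an unadjusted p under 0.05, where 30.0% of all tested probes were. The brightest Cdk4 probe, for the partner of D cyclins, read 9.48 and 9.23 in Atm-/- and 9.32 and 9.50 in Atm+/+. Its difference of -0.06 had a 95% interval of -0.67 to 0.55. At ILMN_2646203 Cdk4 differed by 0.78 ± 0.49, with overlapping values and no call. Cdk2, the partner of cyclin E, read 7.62 and 7.96 in Atm-/- and 7.95 and 7.79 in Atm+/+ at its brightest probe, a difference of -0.08 with an interval of -0.70 to 0.54. At ILMN_2717613 Cdk2 read 5.87 and 6.58 in Atm-/- and was at background in Atm+/+, a difference that did not pass (adjusted p = 0.152). The remaining tested Cdk2 probe differed by -0.21 ± 0.37. Cdk1, the kinase of mitosis, had 1 tested probe, near background, at 6.03 and 5.37 in Atm-/- and 6.23 and 5.97 in Atm+/+ (-0.39 ± 0.31). Cdk6 and Cdk7 were above background on no more than 1 array at any probe.

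Among the CDKs that act in transcription or elsewhere, Cdk10 rose. Cdk10 is a partner of cyclin M and a regulator of the transcription factor ETS2 in human cells. At ILMN_2646209 it read 9.02 and 8.38 in Atm-/- and 6.15 and 6.62 in Atm+/+, a rise of 2.32 ± 0.32 (4.98-fold, adjusted p = 0.00568). At ILMN_2633872 it read 9.98 and 9.84 in Atm-/- and 8.82 and 8.42 in Atm+/+, a rise of 1.29 ± 0.27 (adjusted p = 0.0240). Its brightest probe, ILMN_1255741, read 9.81 and 9.56 in Atm-/- and 9.15 and 8.58 in Atm+/+ and did not pass (0.82 ± 0.30, adjusted p = 0.114). All 3 probes were higher on both Atm-/- arrays, but the size of the difference varied between them. The genotypes did not overlap, in either direction, at 59.8% of all tested probes. Without Atm-/- replicate 1 neither call held (adjusted p 0.0534 and 0.268).

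The remaining kinases of this group did not pass. Cdk8 and Cdk19, kinases of the Mediator complex, differed by 0.11 ± 0.25 for Cdk8 and by 0.37 ± 0.25 and -0.36 ± 0.39 at the tested Cdk19 probes. Cdk9, the elongation kinase, read 9.59 and 9.09 in Atm-/- and 9.32 and 9.41 in Atm+/+ (-0.02 ± 0.28). Cdk14 differed by 0.24 ± 0.25 at its tested probe, its other 7 probes being dim. The tested Cdk20 probes ran from -1.05 ± 0.36 to 0.30 ± 0.28, and the lowest of them had an adjusted p of 0.102. Cdk11b, a kinase linked to splicing, read 11.12 and 11.11 in Atm-/- and 10.54 and 10.87 in Atm+/+ at its brighter probe (0.41 ± 0.26). It differed by 0.73 ± 0.29 at the other, and neither passed. The genotypes did not overlap at either Cdk11b probe, as at 59.8% of all tested probes. Cdk12, which phosphorylates RNA polymerase II, differed by -0.32 ± 0.27 and Cdk16 by -0.40 ± 0.33. Cdk16 read 11.61 on both Atm-/- arrays and 11.58 and 12.44 in Atm+/+, so the genotypes overlapped.

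For CDK5, which acts in neurons with its activator p35, the activator rose while the kinase did not pass. Cdk5 read 10.84 and 10.98 in Atm-/- and 10.56 and 11.15 in Atm+/+, a difference of 0.06 with a 95% interval of -0.63 to 0.75. Cdk5r1, which encodes the neuronal activator p35, read 13.77 and 13.90 in Atm-/- and 12.38 and 12.58 in Atm+/+ at ILMN_1259339, a rise of 1.35 ± 0.25 (2.55-fold, adjusted p = 0.0163). At ILMN_2583351 it averaged 12.89 ± 0.11 in Atm-/- and 11.69 ± 0.43 in Atm+/+ (SD, n = 2 each), a rise of 1.20 ± 0.30 (adjusted p = 0.0403). With Atm-/- replicate 1 or 2 left out neither probe passed (adjusted p 0.170 to 0.335). The cortical and striatal markers given above were higher in the same Atm-/- samples, and their part in this rise was not tested.

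The genes named after binding to the CDK5 activator have other functions and went different ways. Cdk5rap2, a centrosomal protein whose loss causes microcephaly in humans, read 6.85 and 7.47 in Atm-/- and 8.82 and 8.71 in Atm+/+ and fell by 1.61 ± 0.30 (3.04-fold lower, adjusted p = 0.0152). Cdk5rap1, an enzyme that modifies mitochondrial tRNA, rose at 1 of 3 probes, ILMN_2604985, by 1.08 ± 0.28 (8.15 and 7.79 in Atm-/-, 7.06 and 6.72 in Atm+/+; adjusted p = 0.0463). Its other probes differed by 0.99 ± 0.31 and 0.97 ± 0.36 and did not pass (adjusted p 0.0799 and 0.120). Neither gene's call held without an Atm-/- array (adjusted p 0.0569 to 0.456). Cdk5rap3 differed by 0.44 ± 0.31 and Cdk2ap2 by -0.85 ± 0.26 (adjusted p = 0.0737).

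CDK inhibitors gave no call at 8 tested probes, of which 3 had an unadjusted p under 0.05, where 30.0% of all tested probes did. Cdkn1a, the p53 target p21 that arrests the cycle after DNA damage, read 9.97 and 9.83 in Atm-/- and 9.19 and 8.54 in Atm+/+ at its brightest probe. That difference was 1.04 ± 0.30 (adjusted p = 0.0666). At its other probes the difference was 0.89 ± 0.31 and 0.46 ± 0.28, and at all 3 both Atm-/- arrays were above both Atm+/+ arrays. Values of the genotypes did not overlap, in either direction, at 59.8% of all tested probes. Cdkn1c, the imprinted inhibitor p57, read 11.11 and 11.08 in Atm-/- and 12.15 and 11.59 in Atm+/+ (-0.78 ± 0.29, adjusted p = 0.120). Cdkn1b, or p27, the inhibitor that keeps neurons out of the cycle, read 6.51 and 5.80 in Atm-/- and 6.33 and 7.47 in Atm+/+, a difference of -0.75 ± 0.43 with overlapping values. The INK4 inhibitors Cdkn2c and Cdkn2d differed by 0.05 ± 0.25 and 0.15 ± 0.28, and Cdkn2aipnl, taken in by its name, by -0.38 ± 0.29. Cdkn2a and Cdkn2b, markers of senescent cells, were above background on no more than 1 array at any probe.

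The replicative helicase MCM2 to MCM7 unwinds DNA at the fork, and Mcm2 alone of its genes passed. Mcm2 read 6.61 and 6.90 in Atm-/- and 8.15 and 7.93 in Atm+/+, a fall of 1.28 ± 0.26 (2.44-fold lower, adjusted p = 0.0227) that was lost without Atm-/- replicate 1 (adjusted p = 0.306) or replicate 2 (0.168). Mcm3 was at background in Atm-/- and read 6.10 and 6.26 in Atm+/+, a difference of at least 1.46-fold that did not pass (adjusted p = 0.114). Mcm4 averaged 10.14 ± 0.20 in Atm-/- and 10.43 ± 0.17 in Atm+/+ (SD, n = 2 each), a difference of -0.29 ± 0.26 (SE). Mcm5 had a difference of the opposite sign, at 9.79 and 9.31 in Atm-/- and 9.37 and 8.66 in Atm+/+ (0.53 ± 0.33). The 3 tested Mcm6 probes differed by -0.03 to -0.35, with overlapping values at each, and Mcm7 differed by 0.06 ± 0.31. The 8 tested probes of these 6 genes, 3 of them for Mcm6, had a median of -0.19 with Mcm3 at its fitted value or at its bound, with 6 differences below 0 and 2 above. The sign of Mcm3 was fixed by the filter, as it was above background in Atm+/+ only. Of all 22383 tested probes 11132 differed below 0 and 11248 above. No test was made of the helicase genes as a group.

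The loading machinery gave no call. Of ORC, which marks origins, 5 of 6 subunits had a tested probe, and their 6 probes ran from -0.47 to 0.26, with none at an unadjusted p under 0.05. Orc6 read 10.36 and 10.42 in Atm-/- and 10.47 and 10.42 in Atm+/+, a difference of -0.06 with an interval of -0.64 to 0.53. Orc1, the subunit most tied to cycling cells, was at background on all 4 arrays. Cdc6, the MCM loader, overlapped between the genotypes at 6.05 and 5.67 in Atm-/- and 5.38 and 6.47 in Atm+/+. Cdc7, the kinase that fires origins, differed by 0.10 ± 0.28, and Cdc45, a helicase partner, by 0.24 ± 0.29. Mcm10, which binds the helicase as forks start, differed by 0.05 ± 0.31 at its tested probe, and Mcm9 by -0.33 ± 0.27.

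Of the CDC25 phosphatases, which remove the inhibitory phosphates of CDKs and are targets of the checkpoint that ATM serves, Cdc25a fell. At ILMN_2773110 it read 6.25 and 6.39 in Atm-/- and 8.11 and 8.63 in Atm+/+, a fall of 2.05 ± 0.28 (4.13-fold lower, adjusted p = 0.00547). Without Atm-/- replicate 1 the adjusted p was 0.0564. Its other probe was near background and overlapped, at 5.86 and 5.39 in Atm-/- and 4.64 and 5.83 in Atm+/+. Cdc25b differed by 0.15 ± 0.35 and Cdc25c by -0.04 ± 0.37. Cdc20, an activator of the anaphase-promoting complex, differed by 0.38 ± 0.47 and -0.42 ± 0.31 at its tested probes. Cdc20b differed by 0.50 ± 0.36 and Cdc73 by -0.55 ± 0.40.

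Promoters of several of these genes carry sites for E2F, and the windows below are shown because Cdc25a and Mcm2, both called lower, can be read beside Mcm5 and Mcm6, which did not pass. The octamers TTTCCCGC, TTTCGCGC, TTTGCCGC and TTTGGCGC, forms of the E2F site, were searched on both strands in RefSeq windows (build GRCm38.p6) of 250 bases before to 50 after a gene's start. Overlapping matches were kept. Of 81 genes 67 had a window, and 15 of these held an octamer, against 2.26% of all 32851 windows and 2.6% of all genes with a window. Of the MCM2 to MCM7 genes 4 of the 5 with a window held one. Of the 9 genes with a called probe 6 had a window, and Cdc25a held an octamer. The E2f1 window is among those without one, but it may lie downstream of the promoter, so nothing is read from it. Capitals mark the matches, and each window is written in the direction of the gene.
Cdc25a (chr9:109875329-109875628, plus strand): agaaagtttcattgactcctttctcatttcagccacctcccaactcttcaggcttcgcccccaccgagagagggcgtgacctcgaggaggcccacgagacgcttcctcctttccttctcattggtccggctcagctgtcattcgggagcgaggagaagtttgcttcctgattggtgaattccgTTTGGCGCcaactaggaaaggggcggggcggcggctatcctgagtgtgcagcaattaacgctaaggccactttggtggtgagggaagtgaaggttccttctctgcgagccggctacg
Mcm2 (chr6:88898731-88899030, minus strand): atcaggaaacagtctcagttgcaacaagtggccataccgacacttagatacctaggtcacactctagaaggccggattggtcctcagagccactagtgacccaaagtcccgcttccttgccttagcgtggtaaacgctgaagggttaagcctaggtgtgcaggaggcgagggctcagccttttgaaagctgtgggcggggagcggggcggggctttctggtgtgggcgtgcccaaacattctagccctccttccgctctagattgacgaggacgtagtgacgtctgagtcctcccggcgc
Mcm5 (chr8:75109259-75109558, plus strand): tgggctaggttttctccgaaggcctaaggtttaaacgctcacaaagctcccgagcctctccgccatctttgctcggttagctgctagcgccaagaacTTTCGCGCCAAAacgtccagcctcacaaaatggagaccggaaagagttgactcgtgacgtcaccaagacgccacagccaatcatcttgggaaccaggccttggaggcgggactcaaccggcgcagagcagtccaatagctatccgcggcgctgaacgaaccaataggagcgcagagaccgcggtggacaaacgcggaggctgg
Mcm6 (chr1:128359656-128359955, minus strand): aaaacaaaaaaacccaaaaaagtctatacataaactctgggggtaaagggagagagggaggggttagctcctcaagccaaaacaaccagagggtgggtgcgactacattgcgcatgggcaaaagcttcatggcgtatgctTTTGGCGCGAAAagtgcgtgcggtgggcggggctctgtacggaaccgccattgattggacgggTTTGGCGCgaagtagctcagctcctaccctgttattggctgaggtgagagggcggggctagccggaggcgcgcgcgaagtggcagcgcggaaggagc
The Cdc25a match began 67 bases before the start. In Mcm5 a TTTCGCGC and a reversed TTTGGCGC overlapped, beginning 153 and 149 bases before the start. In Mcm6 a TTTGGCGC and a reversed TTTCGCGC overlapped, beginning 110 and 106 bases before the start, and a further TTTGGCGC began 47 bases before it. The Mcm2 window held none of the 4 octamers. A match in a window does not show binding. Mcm3 and Mcm7, which did not pass, also held octamers.

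Genes at the limit of detection included several that are tied to dividing cells. In all 19 of the 81 genes had no tested probe, and 10 of them had no probe above background on any array. Beside Ccna1, Ccna2, Ccnb2, Orc1 and E2f8, these were Ccnl2, Cdk15, Cdkn2aip, Mcm3ap and Mcm8. The other 9 were above it on 1 array at some probe: Ccnb3, Cdk3, Cdk6, Cdk7, Cdk17, Cdk18, Cdkn2a, Cdkn2b and Cdkn3. The highest value among the probes of the 19 genes was 5.81. Among the array's other probes, Top2a, Plk1, Bub1, Aurkb, Pcna and Rrm2, all known for their expression in cycling cells, also had no tested probe. Many genes of the lists they come from were tested, Aurka, Birc5 and Kif11 among them. Of the mitosis and proliferation genes on the array 16 of 34 had a tested probe. So did 26 of 33 replication fork and licensing partners and 5 of 7 genes of nucleotide supply.

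For genes around the cell cycle machinery, outside the symbols above, 5 lists were read. A gene is given here by its brightest tested probe, at which 14.4% of all genes passed. Of 10 tested partners of E2F and the retinoblastoma family, none passed and the median was -0.0043 (-0.48 to 0.42), with Rb1, the retinoblastoma gene, at -0.48 ± 0.34, Lin54 at 0.30, Lin37 at 0.42 and Rbl2 at -0.28. Of 26 replication fork and licensing partners 1 rose and 1 fell, with a median of -0.19. Clspn, the adaptor claspin of the ATR checkpoint, read 7.16 and 7.15 in Atm-/- and was at background in Atm+/+, at least 2.86-fold higher (adjusted p = 0.00555). Clspn was above background in Atm-/- only, so the filter fixed the direction of its change. Rpa3, a subunit of the protein that coats single-stranded DNA, read 8.27 and 8.39 in Atm-/- and 9.56 and 9.89 in Atm+/+ and fell by 1.40 ± 0.26 (adjusted p = 0.0165). Rfc5 at 0.92 ± 0.27 and Tipin at -0.86 ± 0.26 did not pass.

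Mitosis and proliferation genes gave 2 rises and 3 falls among 16 tested (31.2%, against 14.4% of all genes), with a median of 0.37. Cdca8, the borealin subunit of the chromosomal passenger complex, read 7.64 and 7.38 in Atm-/- and was at background in Atm+/+, at least 3.66-fold higher (adjusted p = 0.00420). Here too the filter fixed the direction, as Cdca8 was above background in Atm-/- only. Cenpa, the centromeric histone, rose by 1.51 ± 0.27 (9.16 and 8.86 in Atm-/-, 7.63 and 7.37 in Atm+/+). The cytokinesis genes Kif23 and Anln fell by 1.89 ± 0.26 and 1.68 ± 0.25, Anln being also a gene of oligodendrocytes. Bub1b, a spindle checkpoint kinase named after its values were seen, was the remaining fall, by 1.09 ± 0.25 (adjusted p = 0.0332). Of 5 tested genes of nucleotide supply none passed (median -0.25), with Rrm1 at -0.82, Dut at -0.52, Tyms at -0.25 and Rrm2b at 0.08. Of 17 checkpoint kinases and CDK regulators none passed either (median -0.15). Chek2, the kinase directly downstream of ATM, read 5.72 and 5.38 in Atm-/- and 6.55 and 6.33 in Atm+/+ (-0.89 ± 0.27, adjusted p = 0.0716), Ccnc differed by -0.88, Mnat1 by -0.80 and Ccnk by -0.73.

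Markers of cells that still divide or have just done so were measured beside these genes. Over all genes, at the brightest tested probe, 7.50% were higher in Atm-/- and 6.89% lower. Of 15 neural progenitor and young neuron markers 7 were tested. Of these 5 were higher in Atm-/- and none lower, with a fitted median of 1.33, or 1.05 with the genes at background set to their bound, and a summed linear signal of 2564 to 2616 in Atm-/- and 994 to 1203 in Atm+/+. Dcx, of migrating young neurons, read 8.57 and 8.60 in Atm-/- and 6.76 and 6.17 in Atm+/+. Sox11 and Sp8 were also higher. Nes and Igfbpl1 were at background in Atm+/+, so the filter fixed their direction. Of 10 oligodendrocyte precursor markers 1, Gpr17, was higher, with a median of -0.32 (21460 to 21620 in Atm-/-, 27030 to 30700 in Atm+/+). Of 11 endothelial and pericyte markers 4 were higher, of 13 astrocyte markers 6 were lower, of 11 oligodendrocyte markers 2 were lower, and of 10 microglial markers none passed. Of 11 choroid plexus and ependymal markers 9 were lower, and of 10 meningeal markers 6 were lower. The part of any of these cell types in the changes of cell cycle genes was not tested.

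**Figure D3:**
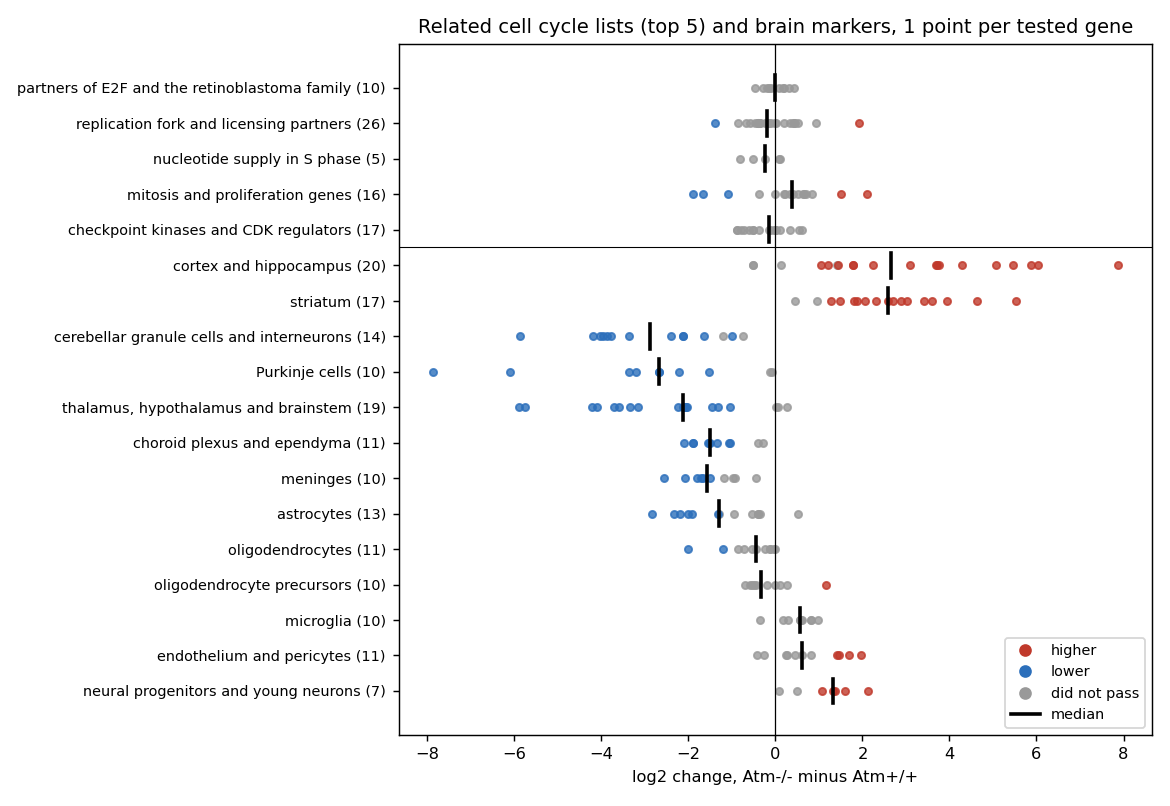
Log2 change, Atm-/- minus Atm+/+, of each tested gene in the 5 related cell cycle lists and the 13 lists of brain markers, at its brightest tested probe, with the number tested in brackets and the median as a bar. The medians of the cell cycle lists lay between -0.25 and 0.37, and those of the marker lists between -2.88 and 2.66 (-2.74 and 2.66 with genes at background at their bound).

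The spread between replicates was unequal between genotypes among the cell cycle probes too. No tested probe of the 100 differed over 2-fold between the Atm-/- arrays, while 14 did so between the Atm+/+ arrays. Leaving out an array therefore moved the calls in opposite ways. With either Atm-/- array left out the spread came from the Atm+/+ pair alone, and 1 and 3 of the 100 cell cycle probes passed, where 3.03% and 2.98% of all tested probes did. With either Atm+/+ array left out it came from the Atm-/- pair alone, and 38 and 36 of the 100 passed, where 37.2% and 33.6% of all did.

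**Figure D4:**
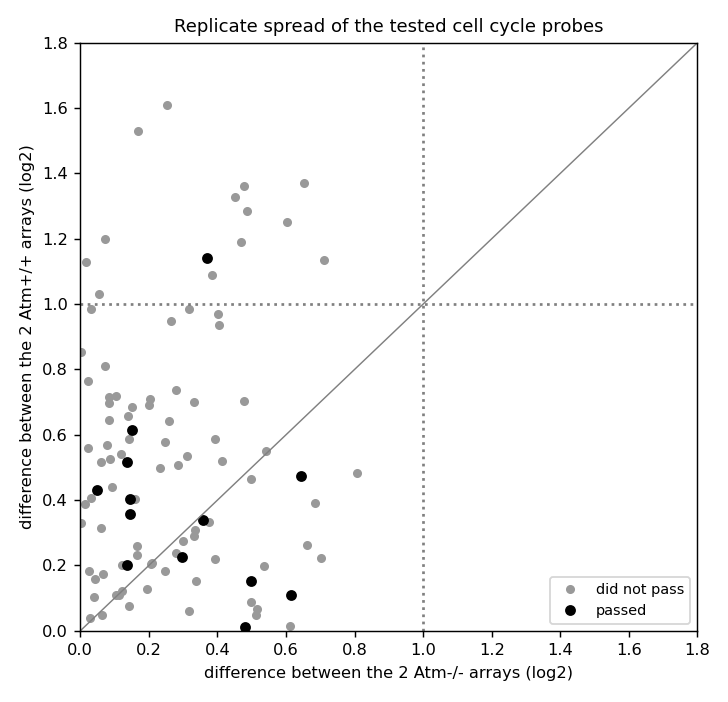
Difference between the 2 Atm-/- arrays (horizontal) and between the 2 Atm+/+ arrays (vertical) at the 100 tested cell cycle probes, in log2 units, with dotted lines at 2-fold. No point lay beyond 2-fold on the Atm-/- axis and 14 lay beyond it on the Atm+/+ axis.

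**Figure D5:**
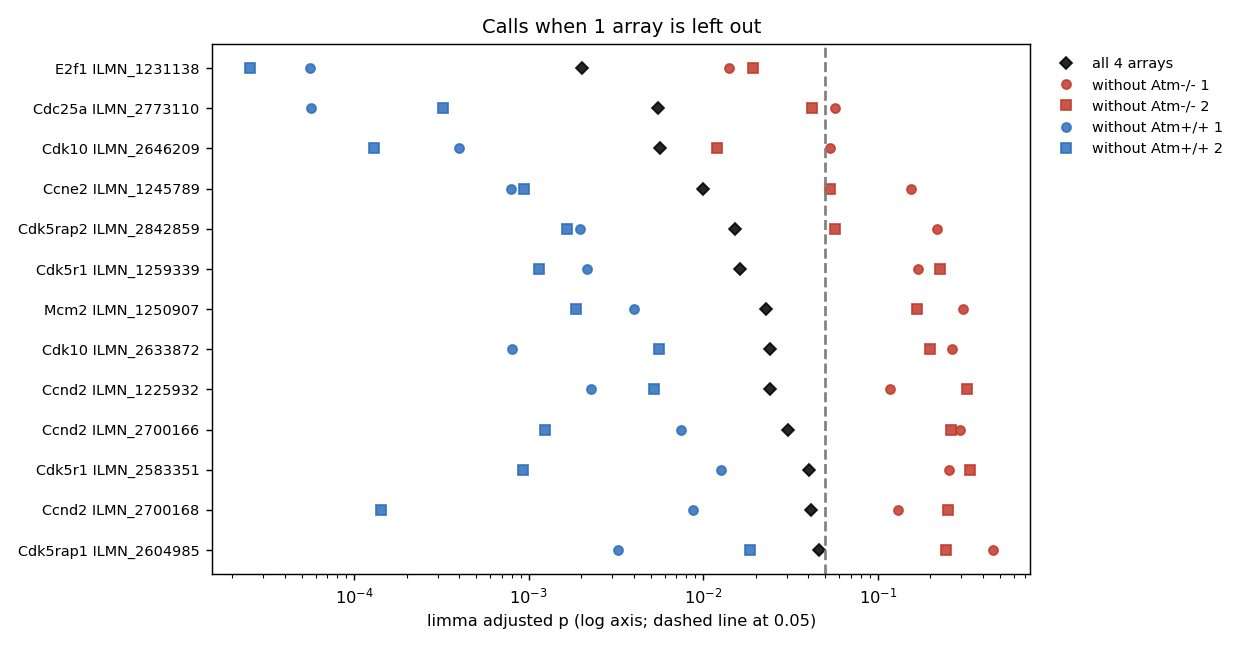
Limma adjusted p of the 13 called probes with all 4 arrays and with each array left out, on a log axis with the threshold of 0.05 dashed. E2f1 stayed left of the threshold in all 4 fits, and the other 12 crossed it when an Atm-/- array was left out.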

How the data were processed

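Brain RNA of 2 Atm-/- and 2 Atm+/+ samples, grouped by the genotype label, was measured on Illumina bead arrays. For 45281 probes the authors deposited processed values, read here as log2 signals. How they were made is not given in the sources used here. The log base was inferred from their range of 4.47 to 16.1, and the arrays share 1 distribution to within 0.0792, as quantile normalization leaves them, so a change common to most genes would be lost. A further 8 columns of per-sample values, before normalization, carry names that match no label and were not used.

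The background level was placed 3 SD (0.195, of the values below the mode) above the mode of all values, 5.054. Probes above it on at least 2 arrays were fitted in R 4.3.3 with limma 3.58.1 (lmFit, then eBayes), without covariates or trend (2 residual and 5.22 prior degrees of freedom), and p-values were adjusted by Benjamini-Hochberg over all 22383 tested probes. The fit was tested on simulated data with the same spread in both genotypes, so that test does not cover the unequal spread of these arrays. Changes are Atm-/- minus Atm+/+. A summed signal is the sum of 2 to the power of the log2 values over a list's tested genes. Where 1 genotype was at background, the bound is the other's mean over the level. With 2 arrays a genotype, the number of arrays limits the precision.

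The platform annotation gives 34885 probes 1 symbol, 18 several and 10378 none, and probes with several were not named. Named were all genes with a called probe, the main cyclins, CDKs, inhibitors, E2F, MCM, ORC and CDC genes whatever their result, and the 4 genes of smallest p in each related list. Ccnb1 and Cdk5r2 were meant to be among them, but no probe carried either symbol alone. Other members were named after their values were seen, to account for each. The genes, lists and tests were chosen with earlier results of these data known. Alternatives covered the array left out, a replicate block, the filter, the normalization and the variance prior.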

Additional observations from a re-analysis of the deposited data

How the results depend on the processing

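Across the 11 alternatives none of the 13 called cell cycle probes changed sign. Cyclic loess, centring on the median of tested probes and a background level 5 SD above the mode kept all 13 calls, no filter on dim probes kept 10, and an intensity trend kept 12. Cdkn1a at ILMN_2634083 passed with that trend (adjusted p = 0.0482) and with the replicate block (0.0201). With no shared variance prior, on 2 residual degrees of freedom, 0 probes passed on the array (0 cell cycle probes higher, 0 lower, 0 genes at the brightest probe), although 4484 probes, 19 of them cell cycle probes, had an unadjusted p under 0.05. When 1 array was left out, the probes past the threshold ranged from 666 to 8320 on the array, from 1 to 23 for cell cycle probes higher in Atm-/-, from 0 to 18 for those lower, and from 1 to 21 for genes at their brightest probe. The lowest counts came without an Atm-/- array and the highest without an Atm+/+ array. With the replicate number as a block, 4574 probes passed on the array (main count 2919), 18 of them cell cycle probes, and all 13 calls remained. The labels give no pairing beyond the number, and the deviations of same-numbered samples from their group means had a correlation of 0.059 across probes. Background correction of the signals before normalization was not run, because their columns could not be matched to samples. Probes near the background level give bounds only.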

Other observations

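Several probes of a gene could differ in direction. Of 23 cell cycle genes with more than 1 tested probe, 14 had every tested probe on the same side of 0. Of the 23 genes 5 had a called probe, and in 2 of these, Ccnd2 and Cdk5r1, every tested probe was called. Cdc25a had a called probe at -2.05 and a dim one at 0.39. For Cdk13, a kinase of RNA polymerase II, ILMN_3118569 read 8.89 and 8.82 in Atm-/- and 9.22 and 9.39 in Atm+/+, while ILMN_1245824 read 8.39 and 8.70 in Atm-/- and 7.83 and 8.37 in Atm+/+. Neither passed (adjusted p 0.281 and 0.363). The genotypes did not overlap at either probe, as at 59.8% of all tested probes. Cdk13 was named after its values were seen.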
